A study of Mus musculus with 36 samples.

Results

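The transcriptomes of 4T1 and Py230 mammary tumors were compared at 1 week after intraductal inoculation. All libraries labelled as tumors of either cell line at 1 week entered the comparison, which gave 3 libraries of each line, or 6 of the 36 libraries of the series (12 groups of 3). The 4T1 line is BALB/c-derived, expresses firefly luciferase and was inoculated in lactating BALB/c females. The Py230 line came from a spontaneous tumor of an MMTV-PyMT transgenic mouse on a C57BL/6 background, in which the mammary tumor virus promoter drives the middle T antigen in mammary epithelium, and was inoculated in lactating C57BL/6 females. In both models the cells were injected in PBS and Matrigel through the teat of the third mammary gland, 1 h after the pups were weaned, and more Py230 than 4T1 cells were given per gland. Each line is a single cultured line, and line, strain and cell number changed together between the tumors. The BALB/c and C57BL/6 glands that received Matrigel alone, 3 of each at 1 week, serve as a check for strain differences without tumor cells. Below, the strain difference is the difference between these glands. They cannot show how the strains differ in their response to a tumor.

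After weaning, the milk-producing epithelium of the mammary gland dies and is cleared by phagocytes, proteases remodel the matrix, and adipocytes refill the gland. Tumor cells placed in the ducts at this moment grow as an in situ lesion in a tissue that already recruits immune cells. Monocytes enter through chemokine receptors such as CCR2, dendritic cells present antigen on MHC molecules to T cells, and natural killer (NK) cells and cytotoxic T cells kill targets with granzymes and perforin. Regulatory T cells and the checkpoint receptors restrain this response, while eosinophils, basophils and alternatively activated macrophages mark type 2 immunity. In the epithelium, Notch, Hedgehog, Wnt and fibroblast growth factor signals and the transcription factor Foxa1 govern duct growth and the luminal state.

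Values are scores. The authors deposited, for each gene and library, a normalized expression value centered at 0 in each library and divided by the library's own SD across all 21650 genes. Across 5842 genes with steady values, 1 score unit spanned 2.99 log2 units of the mean normalized count given by the authors, which is a guide to the scale of levels and not a fold change of any gene. A gene was called when its difference had an adjusted p under 0.05 (limma, Benjamini-Hochberg over all genes), and adjusted p values below are from this test unless another is named. Two-sided exact permutation of 3 against 3 libraries cannot give a p under 0.10, so single genes were tested with limma and not by permutation. In these bulk samples, fewer cells of a type and less RNA per cell cannot be told apart.

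The libraries of a tumor group did not stand equally far from the control glands. Replicate 2 of the 4T1 tumors was more alike BALB/c gland 1 (correlation across genes 0.988) than its own group (0.972 to 0.981), and replicate 2 of the Py230 tumors was most alike C57BL/6 gland 1 (0.991, against at most 0.988 in its group). Among the glands, replicate 2 of each strain was most alike replicate 2 of the other (0.982). *Hmga2*, a chromatin protein of embryonic and tumor cells that reached a mean of 1.38 in 4T1 tumors at 6 weeks, gave -1.36 to -1.31 in the 3 4T1 tumors at 1 week, above all Py230 tumors (-2.04 to -1.82) and all glands of that week (-1.97 to -1.78), and the difference of 0.56 was not called (adjusted p = 0.08). The luminal cell genes *Krt8* and *Epcam* had like scores in both tumors (differences 0.00 and -0.03). Of 22 luminal and 16 epithelial junction genes, 5 and 2 were called lower in 4T1 and none higher (22.7% and 12.5%, against 19.4% of all genes). The median differences were -0.14 and -0.09. No marker of Py230 cells was checked. The summed level of 16 skeletal muscle genes varied between libraries without relation to the line, with list means of -0.61 to 1.51 in 4T1 and 0.37 to 1.56 in Py230 tumors and no member called. The glands varied too, from -0.50 to 2.21 in BALB/c and from -0.73 to 2.31 in C57BL/6. Tissue content may thus enter the gland differences, which was not tested.

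Between the tumors, 19.4% of the 21650 genes were called: 11.0% (2371 genes) were higher in 4T1 and 8.43% (1825 genes) were lower. The values of the 3 4T1 libraries lay wholly above or below those of the 3 Py230 libraries for 39.1% of all genes. The called differences were mostly small, with a median absolute difference of 0.25, and 94 called genes differed by at least 1 unit (60 higher, 34 lower). The number of calls depended on single libraries. Leaving out 4T1 replicates 1, 2 and 3 in turn gave 1832, 5581 and 1634 calls, and leaving out Py230 replicates 1, 2 and 3 gave 2117, 3261 and 2947. A core of 1249 genes, 667 higher and 582 lower, was called in each of these 6 fits. Calls of single genes outside this core rest on some of the libraries.

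The Matrigel glands of both strains differed in 3.06% of genes (662 called, 339 higher and 323 lower in BALB/c). Of these, 452 were also called between the tumors, 451 in the same direction, which is 68.3% of the strain calls and 10.8% of the tumor calls. The gland difference had the sign of the tumor difference for 75.6% of the genes lower and 59.5% of the genes higher in 4T1 tumors. With the strain difference subtracted, 0.305% of genes (66) were called, 52 higher and 14 lower in 4T1, and this count rested on single libraries. It was 2, 1784 and 0 when 4T1 replicates 1, 2 and 3 were left out in turn, 0, 12 and 40 for the Py230 tumors, 4, 0 and 404 for the BALB/c glands and 0, 236 and 1 for the C57BL/6 glands. The plot of both differences shows the genes called in both comparisons along the diagonal.

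**Figure D1:**
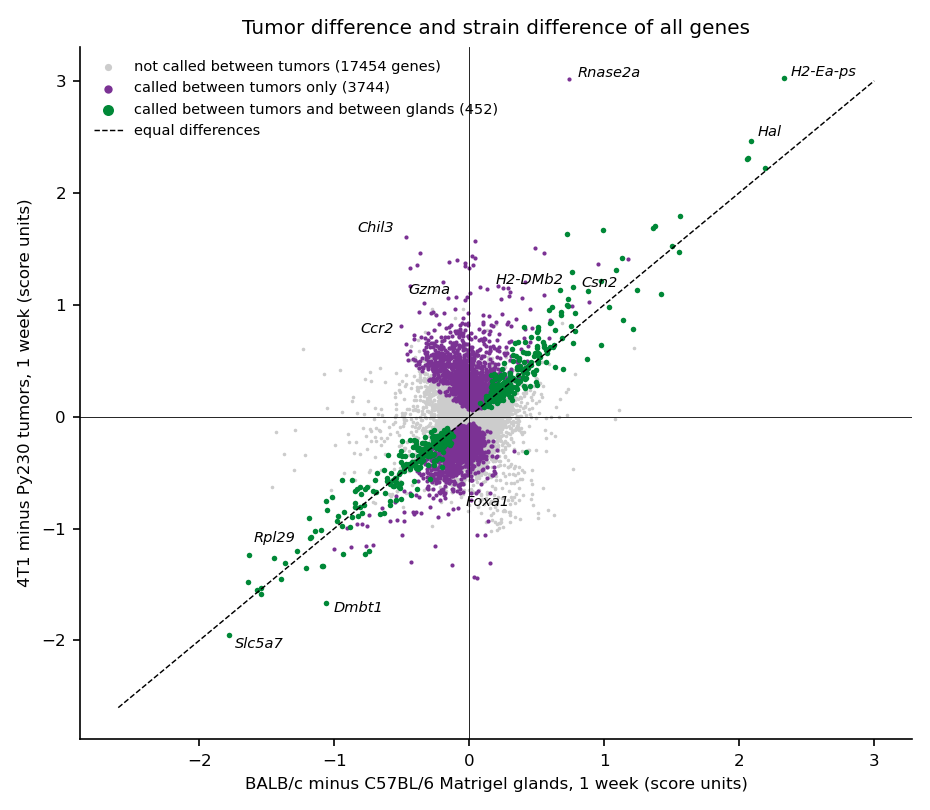
Each point is 1 of 21650 genes, with the BALB/c minus C57BL/6 difference of the Matrigel glands on the x axis and the 4T1 minus Py230 tumor difference on the y axis, both in score units at 1 week. The 452 genes called in both comparisons (green) follow the dashed line of equal differences, while the 3744 genes called between tumors only (purple) spread above and below the middle of the x axis.

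The genes with the largest differences were mostly strain genes. Of the 20 largest (10 in each direction, at a mean normalized count of 100 or more), 19 were also called between the glands, and *Rnase2a* alone was not. *Hal*, which encodes the histidine-degrading enzyme histidase, gave 1.34, 1.13 and 1.57 in 4T1 and -0.91, -1.15 and -1.28 in Py230 tumors, and the glands parted alike (0.77 to 1.01 in BALB/c and -1.23 to -1.17 in C57BL/6). Its tumor difference of 2.46 (SE 0.21, adjusted p = 2.92e-09) stood beside a strain difference of 2.09. *Ifi202b*, an interferon-inducible DNA-binding protein gene, differed by 2.30 in tumors and 2.05 in glands. In the other direction, *Col4a6*, a basement membrane collagen chain, was lower in 4T1 tumors by 1.34 units (-0.42 to -0.28 in 4T1, 0.92 to 1.07 in Py230), with a strain difference of -1.08, and the GTPase gene *Rab6b* differed by -1.33 and -1.09. The guanylate-binding protein gene *Gbp2b* (1.67 in tumors, 0.99 in glands) and the serpin locus *Serpina3h* (1.63 and 0.73) had larger differences in tumors than in glands, but the excess was not called for either (adjusted p = 0.103 and 0.0773).

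Several strain genes belong to families of near-identical copies, where handling of reads that map to more than one place is not given in the sources used here and values are uncertain. Among 78 ribosomal protein genes, 11 were higher and 8 lower in 4T1 (24.4% called, against 19.4% of all genes). The 8 lower genes were *Rpl29* (-1.09), *Rpl21* (-0.85), *Rps2* (-0.81), *Rps18* (-0.57), *Rpl26* (-0.55), *Rpl3* (-0.45), *Rpl30* (-0.27) and *Rpl35a* (-0.14, called in 1 of the 6 fits). Their gland differences were as large or larger, from -1.18 for *Rpl29* to -0.28 for *Rpl35a*, and 9 members were called lower in BALB/c glands. The 11 higher members differed by 0.10 to 0.19 only. Processed pseudogenes, copies of spliced messengers such as those of the ribosomal proteins, were 82.4% higher among their calls (327 higher, 70 lower of 2776), against 52.4% among protein-coding genes (1739 higher, 1581 lower of 15855). Between the tumors 14.3% of processed pseudogenes were called (19.4% of all genes). Between the glands it was 3.03%, near the 3.06% of all genes. The immunoglobulin segments *Igkv8-27* (-1.53) and *Ighv1-55* (-1.47) were lower in 4T1 and as much lower in BALB/c glands (-1.54 and -1.64). Chromosome 17, which carries the MHC, had the highest share of called genes of any chromosome both between tumors (24.7%) and between glands (6.7%), and none of the 23 mitochondrial genes was called.

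*Rnase2a*, an eosinophil-associated ribonuclease gene at chr14:51255262-51256112 (mm10, minus strand), had the largest tumor difference of the genes not called between the glands. Its scores were 1.97, 0.65 and 2.15 in 4T1 tumors against -1.33, -1.41 and -1.54 in Py230 tumors, -0.66 to -0.30 in BALB/c glands and -1.34 to -1.20 in C57BL/6 glands. Every 4T1 tumor exceeded every other library of 1 week, with replicate 2 the lowest of the 3. The difference of 3.02 (SE 0.30, adjusted p = 6.3e-08) remained 2.28 (SE 0.43, adjusted p = 0.0351) with the strain difference subtracted.

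Genes linked to eosinophils, basophils and mast cells were called in both directions. Of 20 measured genes of this list, 7 were higher and 3 lower in 4T1 (50% called, against 19.4% of all genes). The 7 include *Rnase2a* itself and the chemokine *Ccl24*, which is also counted with the macrophage polarization genes below. *Ear2* and *Ear10*, further eosinophil-associated ribonucleases whose sequences are close to each other and thus uncertain, were higher by 0.94 (adjusted p = 0.00435) and 0.58 (adjusted p = 0.00397). *Mcpt8*, a protease made by basophils, gave -0.58, -1.73 and 0.54 in 4T1 tumors and lay between -2.02 and -1.77 in all 9 other libraries of the week, so that 4T1 replicates 1 and 3 stood clear of them and replicate 2 just above (difference 1.37, SE 0.31, adjusted p = 0.0035). *Siglecf*, the eosinophil sialic acid receptor, was higher by 0.71 and lost its call without 4T1 replicate 1 or 3 or Py230 replicate 1. *Prg2*, major basic protein, differed by 0.33 and the eotaxin receptor *Ccr3* by 0.53, neither called (adjusted p = 0.11 and 0.14). The mast cell chymase *Mcpt4* was lower in 4T1, at 0.00, 0.54 and 0.29 against 1.08, 0.83 and 0.87 (difference -0.65, SE 0.15, adjusted p = 0.00447), as was the tryptase *Tpsb2* (-0.57, adjusted p = 0.00367). The count of higher genes was 12 without 4T1 replicate 2 and 4 without 4T1 replicate 1 or 3.

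Most genes of T cells and cytotoxic lymphocytes were higher in 4T1 tumors. Of 22 T cell genes 14 were higher and none lower (63.6% called, against 19.4% of all genes). Their median difference was 0.53, against 0.0055 over all genes. Among 18 genes of cytotoxic lymphocytes and NK cells 11 were higher and none lower (61.1% called, median 0.47). In the glands the median differences of both lists were negative (-0.19 each). The mean score of the T cell list was 0.05, -0.19 and 0.11 in the 4T1 tumors, -0.63, -0.38 and -0.42 in the Py230 tumors, -0.74 to -0.44 in BALB/c glands and -0.64 to -0.25 in C57BL/6 glands. The 4T1 tumors stood above the 9 other libraries, and the Py230 tumors lay within the range of the glands, as the plot of marker lists shows.

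**Figure D2:**
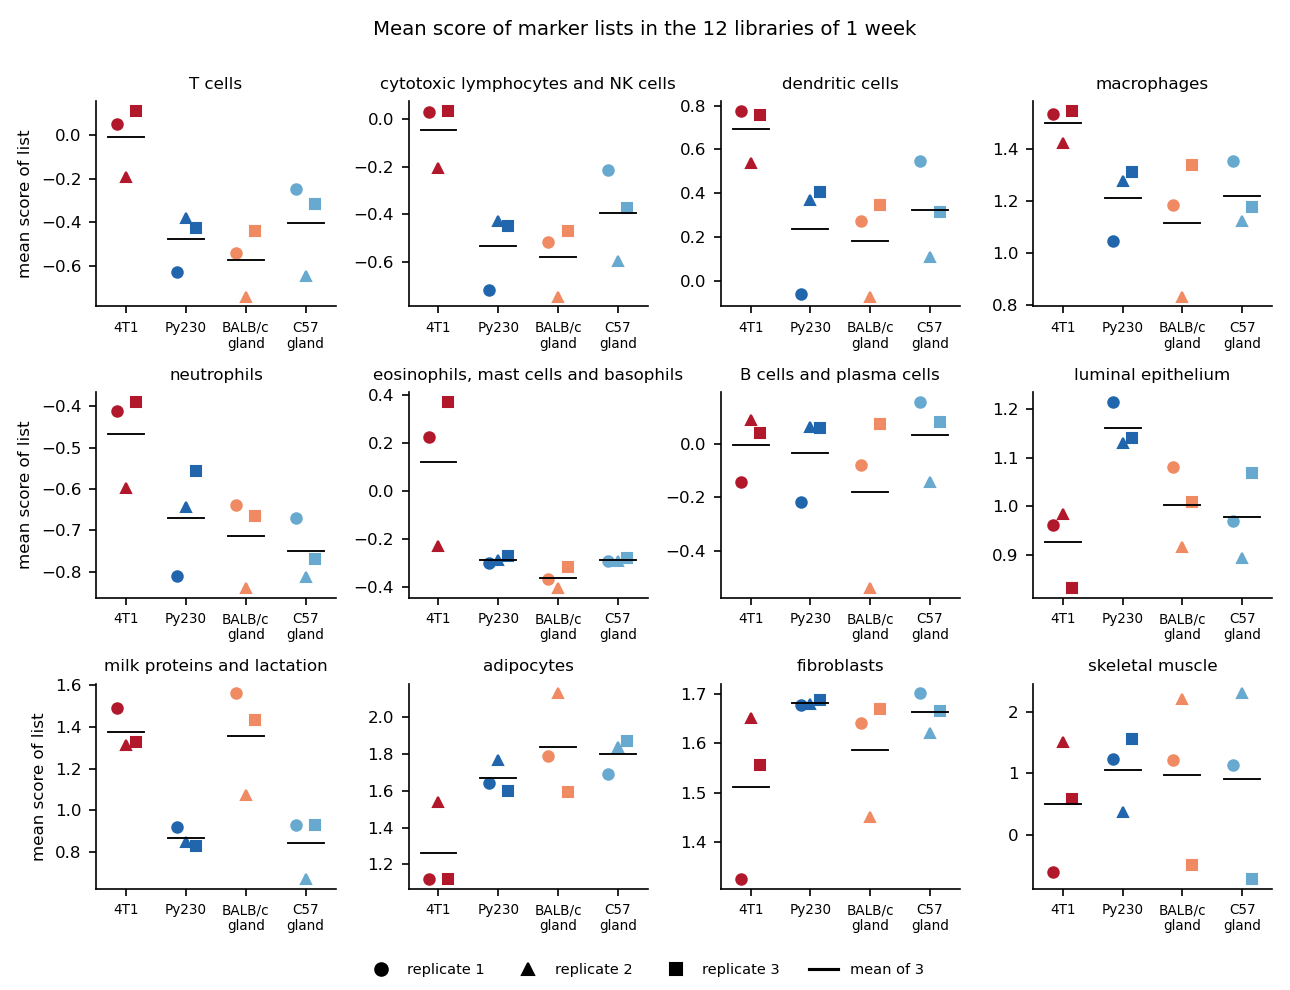
Mean score of 12 marker lists in each of the 12 libraries of 1 week, with 1 panel per list, the 4 groups on the x axis, a symbol for each replicate number and a bar at the mean of 3. The T cell, cytotoxic lymphocyte and dendritic cell lists are higher in the 4T1 tumors than in the Py230 tumors, whereas the B cell list overlaps. Milk proteins follow the strain, and skeletal muscle varies within every group.

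The strongest single gene of this group was *Gzma* (chr13:113093825-113100981), which encodes granzyme A of NK and T cells. It gave 1.04, 0.59 and 1.14 in 4T1 tumors and -0.38, 0.05 and -0.03 in Py230 tumors, with all 6 glands between -0.13 and 0.28. The difference was 1.04 (SE 0.14, adjusted p = 5.49e-06) and 1.07 with the strain subtracted (adjusted p = 0.0338). *Ncr1*, the NK receptor NKp46, was higher by 0.77 (SE 0.12, adjusted p = 5.91e-05), and *Eomes*, a transcription factor of NK and cytotoxic T cells, by 0.70 (adjusted p = 0.00257). Both kept the call with the strain subtracted (0.86 and 1.03, adjusted p = 0.0351 and 0.0427). *Gzmb* (0.69) and *Prf1*, perforin (0.66), were higher too but were each called in 3 of the 6 fits with a library left out. Among T cell genes, the adhesion receptor *Cd2* (0.62, adjusted p = 0.00124) and the receptor kinase *Zap70* (0.64, adjusted p = 0.00364) were called in all 6, and *Cd3e*, a chain of the T cell receptor complex, in 5 (0.65, adjusted p = 0.00804). The coreceptor genes *Cd4* (0.31), *Cd8a* (0.24) and *Cd8b1* (0.38) and the effector cytokine *Ifng* (0.24) were not called (adjusted p = 0.15, 0.45, 0.13 and 0.11). The T cell list had 3 calls when 4T1 replicate 3 or Py230 replicate 1 was left out, 6 when 4T1 replicate 1 was, and 10 to 14 otherwise. The cytotoxic list had 3 calls in each of those cases.

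Regulatory T cell and checkpoint genes were the immune list with the highest share of calls (70%, against 19.4% of all genes). Higher were 14 of 20 measured and lower none (median 0.45, -0.10 in the glands), and 8 of the 14 were called in all 6 fits. *Ctla4*, the inhibitory receptor of regulatory and activated T cells, gave -0.01, -0.52 and -0.09 in 4T1 tumors and -1.47, -1.01 and -0.90 in Py230 tumors (difference 0.92, SE 0.20, adjusted p = 0.00264). *Foxp3*, the defining transcription factor of regulatory T cells, was higher by 0.47 (0.49, 0.16 and 0.49 against -0.16, -0.06 and -0.05). The inhibitory receptors *Tigit* (0.82), *Lag3* (0.74) and *Btla* (0.72), the costimulatory receptor *Icos* (0.82) and *Ccr8*, a chemokine receptor of regulatory T cells in tumors (0.67), were higher as well. The largest difference of the list was in *Pdcd1lg2*, the second ligand of the PD-1 receptor, at 0.78, -0.66 and 0.53 against -1.49, -1.10 and -1.16 (difference 1.46, SE 0.30, adjusted p = 0.0015), where 4T1 replicate 2 lay closer to the Py230 tumors than to its own group. *Pdcd1*, the PD-1 receptor (0.41, adjusted p = 0.067), and its first ligand *Cd274* (0.30, adjusted p = 0.076) were not called. Leaving out 4T1 replicate 1 or 3 or Py230 replicate 1 gave 8 calls in the list. The strain-subtracted difference was not called for any member.

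**Figure D3:**
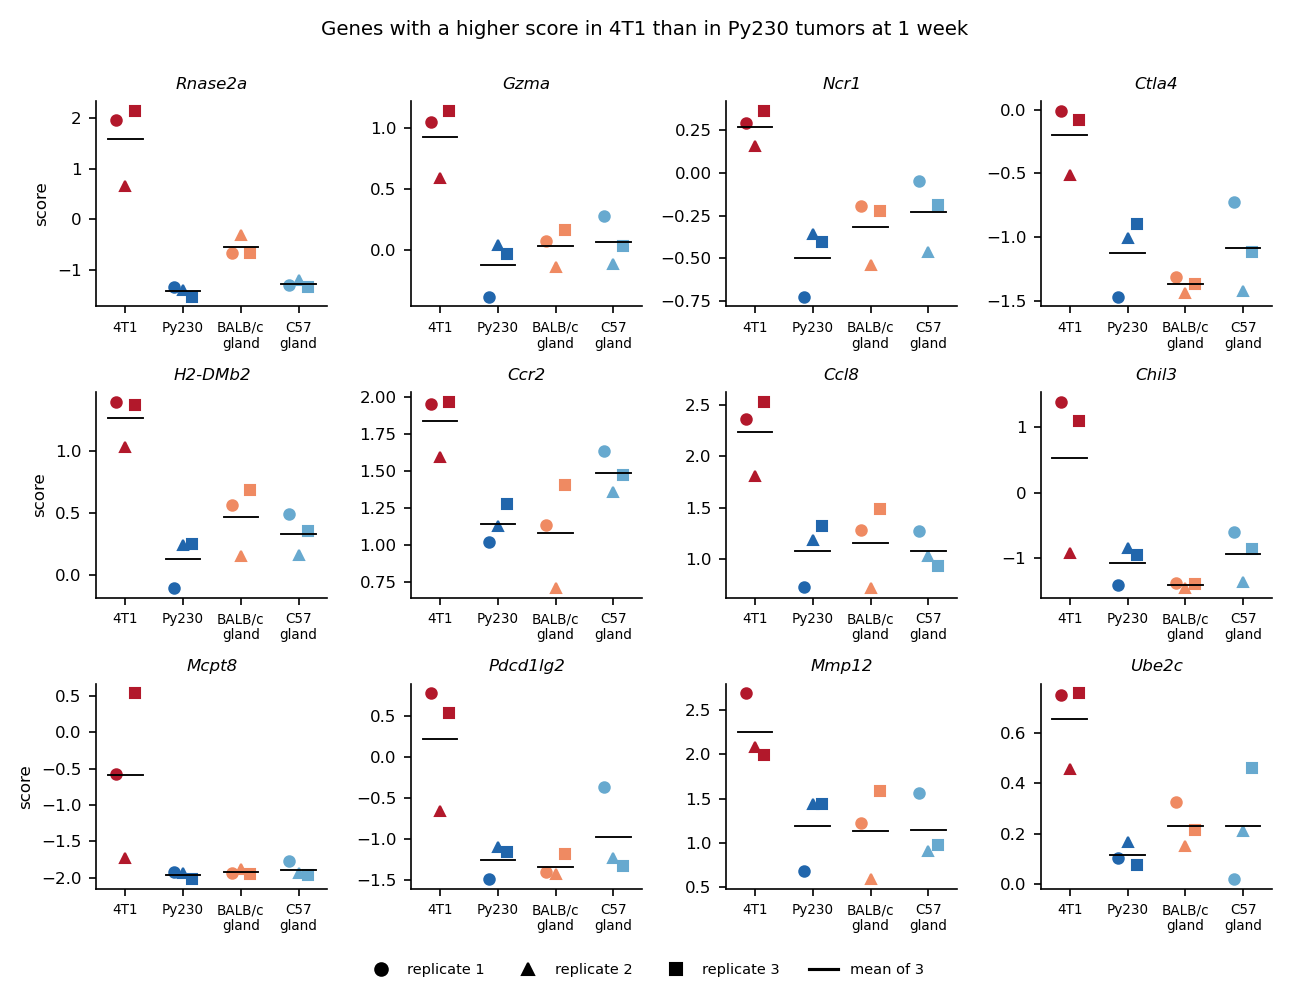
Scores of 12 genes with higher values in the 4T1 tumors, at 1 week in each of 12 libraries (y axis, score units, own range in each panel), with symbols for the replicate number and a bar at the mean of 3. In most panels 4T1 replicate 2 is the lowest of its group, and for Chil3 it lies at -0.92, within the range of the Py230 tumors.

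Many antigen presentation genes were higher in 4T1 tumors. Of 14 measured genes of the MHC class II pathway 8 were higher and none lower (57.1% called, against 19.4% of all genes). The list median was 0.48, and -0.34 in the glands, and 4 members were called in all 6 fits. *H2-DMb2* (chr17:34143307-34151555, plus strand), a chain of the H2-DM molecule that loads peptides onto class II, gave 1.40, 1.03 and 1.37 in 4T1 tumors, -0.11, 0.24 and 0.25 in Py230 tumors and 0.15 to 0.68 in the 6 glands. All 3 4T1 tumors exceeded every other library, and the difference was 1.14 (SE 0.16, adjusted p = 1.58e-05) and 1.00 with the strain subtracted (adjusted p = 0.0487). Its partner chain *H2-DMa* was higher by 0.59 (0.93 with the strain subtracted, adjusted p = 0.0427) and the lysosomal thiol reductase *Ifi30*, which unfolds antigens for class II, by 0.74 (adjusted p = 0.00327). *Ciita*, the master activator of class II genes (0.56, adjusted p = 0.0314), *H2-DMb1* (0.51) and *H2-Aa* (0.46) were called in 2 or 3 of the 6 fits, whereas *H2-Ab1* (0.43), *H2-Eb1* (0.41) and the invariant chain *Cd74* (0.44) were not called (adjusted p = 0.063, 0.073 and 0.059). *H2-Oa*, *H2-Ob* and *H2-Eb2* differed by 0.07, 0.03 and -0.11. The fourth gene called in all fits was *H2-Ea-ps*, whose promoter is deleted in C57BL/6 mice and which parted by strain (2.33 in the glands).

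Class II promoters share a pair of short elements, the X box and the Y box, through which the factors that recruit CIITA bind. Promoter sequences of 10 of the 14 genes were found in RefSeq (GRCm38.p6), and they were searched on both strands, in the 250 bases before the start, for the Y box letters TGATTGG and the X box letters AACNGATG, which do not overlap. The Y box letters were found in 7 of the 10, against 8.38% of 27025 promoters, and the X box letters in 5 of the 10, against 2.27%. Both stood in 4 of the 10 and in 0.167% of all promoters. Stretches of 60 bases are shown for the 3 called genes with a Y box match and for *H2-Eb1*, so that the letters can be set beside the differences, with both motifs in capitals and each read 5′ to 3′ on the strand of its gene.
H2-DMb2, chr17:34145107-34145166, plus strand, difference 1.14: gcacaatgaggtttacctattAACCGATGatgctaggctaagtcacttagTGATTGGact
H2-DMb1, chr17:34153078-34153137, plus strand, difference 0.51: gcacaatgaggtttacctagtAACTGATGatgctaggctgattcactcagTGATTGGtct
H2-Aa, chr17:34287864-34287923, minus strand, difference 0.46: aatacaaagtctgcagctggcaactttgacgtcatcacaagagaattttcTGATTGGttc
H2-Eb1, chr17:34305756-34305815, plus strand, difference 0.41: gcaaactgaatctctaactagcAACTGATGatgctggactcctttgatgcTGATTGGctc
The stretches of *H2-DMb2* and *H2-DMb1*, neighbouring genes with near-identical sequence, carry both motifs, while the letters AACNGATG were not found before *H2-Aa*. For *H2-DMb2* the stretch stands before the RefSeq start but inside the GENCODE span given above, which begins further upstream. *H2-Eb2*, which carries both, differed by -0.11, and *H2-Ob* and *H2-Oa*, which carry the Y box letters, by 0.03 and 0.07. Because *H2-DMb1* and *H2-DMb2* are so alike, how reads were divided between them is uncertain.

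The class I pathway had a median difference of 0.23. Of 20 genes 9 were higher and none lower (45% called, against 19.4% of all genes). The count was 5 without 4T1 replicate 1 or Py230 replicate 1, and 11 without 4T1 replicate 2. In 19 of 20 all 4T1 values lay above all Py230 values, a split in either direction that 39.1% of all genes had. *H2-Q4*, a nonclassical class I gene with close relatives and therefore uncertain, was higher by 0.66 (0.34 in the glands), the immunoproteasome subunits *Psmb9* by 0.44 (adjusted p = 0.00417) and *Psmb8* by 0.37, and calreticulin, *Calr*, by 0.26 (adjusted p = 0.00244). *B2m* (0.17), *Tap1* (0.28) and *H2-K1* (0.19) were not called. Interferon-stimulated genes were called about as often as all genes (16.3% against 19.4%). Of 43 members 3 were higher and 4 lower, with a median of 0.02, and 6 of these 7 had a gland difference of the same sign that was 0.24 or more in size, *Ifit3* (-0.66, glands -0.48) and *Trim30d* (-0.63, glands -0.81) among them. *Isg15* (-0.15) and *Irf7* (-0.10) were not called.

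Genes of dendritic cells and of phagocytes were higher in part. Of 17 dendritic cell genes 8 were higher and none lower (47.1% called, against 19.4% of all genes, median 0.52, -0.15 in the glands). *Itgae*, the integrin chain CD103 of migratory dendritic cells and of resident T cells, was higher by 0.70 (0.54, 0.10 and 0.50 against -0.45, -0.31 and -0.22, adjusted p = 0.00296). *Batf3*, a factor required by cross-presenting dendritic cells, was higher by 0.52 and by 0.93 with the strain subtracted (adjusted p = 0.0427), and *Xcr1*, their chemokine receptor, by 0.53, the tumor calls holding in 4 and 3 of the 6 fits. *Itgax*, CD11c, was higher by 0.80 (4 of 6 fits), and *Ccr7* (0.53) and *Flt3* (0.43) were not called. The dendritic list had 2 calls without 4T1 replicate 1 and 10 without 4T1 replicate 2. Of 22 macrophage genes 5 were higher and none lower (22.7% called, against 19.4% of all genes), *Msr1* (0.62), *Trem2* (0.51), *Cd68* (0.46), *Aif1* (0.42) and *Lyz2* (0.40). No member was called without 4T1 replicate 1 or Py230 replicate 1. The defining receptors *Adgre1* (0.24), *Csf1r* (0.41) and *Mrc1* (0.49) were not called (adjusted p = 0.24, 0.055 and 0.057).

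Genes used to describe macrophage polarization were higher on the alternative, type 2 side. Of 24 genes 10 were higher and none lower (41.7% called, against 19.4% of all genes). Among them were *Arg1*, arginase (1.09, adjusted p = 0.00566), *Retnla*, a resistin-like product of alternatively activated macrophages (0.90), the chemokines *Ccl17* (1.36), *Ccl24* (0.84) and *Ccl22* (0.81) and the lectin *Mgl2* (0.71). *Arg1* gave 2.11, 0.92 and 1.60 in 4T1 tumors against 0.56, 0.25 and 0.54 in Py230 tumors, and BALB/c glands exceeded C57BL/6 glands by 0.56. Of this list only *Pdcd1lg2* was called in all 6 fits, and the list had 2 calls without 4T1 replicate 1 or 3. *Chil3* and *Chil4*, close copies that encode chitinase-like lectins of type 2 inflammation, rested on 2 tumors. *Chil3* was 1.39, -0.92 and 1.11 in 4T1 tumors and -1.42, -0.85 and -0.96 in Py230 tumors, so the groups overlapped through 4T1 replicate 2 (difference 1.60, SE 0.44, adjusted p = 0.0124, called in 3 of 6 fits), and *Chil4* (1.35) was called in 1 of 6. On the classical side *Nos2* (0.36), *Tnf* (-0.18), *Il1b* (0.26) and *Il12b* (-0.05) were not called. Of the type 2 cytokines, *Il4* was higher by 0.22 with overlapping groups (called in 2 of 6 fits), *Il13* differed by 0.53 (adjusted p = 0.092) and *Il5* by 0.11 (adjusted p = 0.13).

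Chemokine receptors were higher, and chemokines were called in both directions. Of 23 chemokine receptor genes 12 were higher and none lower in 4T1 (52.2% called, against 19.4% of all genes, median 0.45). *Ccr2* (chr9:124101950-124113557), the receptor that brings monocytes out of the marrow, gave 1.96, 1.59 and 1.97 in 4T1 tumors and 1.02, 1.13 and 1.28 in Py230 tumors (difference 0.70, SE 0.15, adjusted p = 0.00275). In the glands it was lower in BALB/c (0.71 to 1.40) than in C57BL/6 (1.36 to 1.63), a difference of -0.41 that was not called, so with the strain subtracted the tumor difference was 1.10 (adjusted p = 0.0351). *Ccr1*, a receptor of monocytes and granulocytes, was higher by 0.88 (adjusted p = 0.00284). Of 35 chemokines 8 were higher and 4 lower (34.3% called, against 19.4% of all genes). When 4T1 replicate 1 or 3 or Py230 replicate 1 was left out, 3 were higher and 1 or 2 lower. *Ccl8*, a monocyte chemoattractant, gave 2.37, 1.81 and 2.53 against 0.72, 1.18 and 1.32 (difference 1.16, SE 0.26, adjusted p = 0.003), and the myeloid chemokines *Ccl6* (0.75) and *Ccl9* (0.74) were higher in all fits. *Ccl2*, the main ligand of CCR2, differed by 0.36 (adjusted p = 0.29). *Ccl27a*, an epithelial chemokine, was lower (-0.75, adjusted p = 2.54e-08) with a strain difference of -0.54, and *Cxcl12* (-0.25) and *Cxcl14* (-0.39), made by stroma, were lower in 2 and 1 of the 6 fits. The receptor list had 6, 4 and 3 calls when 4T1 replicate 1, 4T1 replicate 3 and Py230 replicate 1 were left out.

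Of 35 cytokine receptors 15 were higher and none lower (42.9% called, against 19.4% of all genes). *Csf2rb*, the common beta chain for GM-CSF, IL-3 and IL-5 (0.59, SE 0.11, adjusted p = 0.000566), was called in all 6 fits. So were its close copy *Csf2rb2* (0.55, adjusted p = 0.00143) and the IL-27 receptor *Il27ra* (0.47, adjusted p = 0.00424). In the list, 3 or 4 members were called when 4T1 replicate 1 or 3 or Py230 replicate 1 was left out. Of 33 cytokine genes 6 were higher and none lower (1 without 4T1 replicate 3), which is 18.2% called, against 19.4% of all genes. Among them were *Ltb*, lymphotoxin beta of lymphocytes, by 0.75 (0.42, 0.29 and 0.60 against -0.59, -0.20 and -0.15, adjusted p = 0.00183), and *Il1rn*, the IL-1 receptor antagonist, by 0.83 (3 of 6 fits). *Tgfb1* was higher by 0.32 (3 of 6 fits), and *Il10* (0.11) was not called. Of 9 measured genes of lymph node and high endothelium, *Ltb* among them, 3 were higher and none lower (33.3% called, against 19.4% of all genes). The lymph node chemokines *Ccl21a* (-0.25), *Ccl19* (-0.03) and *Cxcl13* (0.21) were not called.

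Neutrophil and B cell genes were not a uniform group. Of 20 neutrophil genes 4 were higher, *Csf3r* (0.66), *Ltf* (0.63), *Cxcr2* (0.59) and *Mmp8* (0.59), which is 20% against 19.4% called over all genes. The count was 1 without 4T1 replicate 1 or Py230 replicate 1, 2 without 4T1 replicate 3 and 6 without 4T1 replicate 2. Lactoferrin, *Ltf*, is also a milk protein and was 0.43 higher in BALB/c glands. *Ly6g* (0.13), *S100a8* (0.02), *S100a9* (0.17) and *Mpo* (0.17) were not called, and *Retnlg* differed by 0.75 (adjusted p = 0.058). Of 20 genes of B and plasma cells 3 were higher (*Cd22* 0.60, *Fcrla* 0.39, *Blk* 0.29), which is 15% called, against 19.4% of all genes (list median 0.02). None of these was called without 4T1 replicate 1 or Py230 replicate 1.

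With the strain difference subtracted, further genes were called higher in 4T1 tumors, several of them expressed by leukocytes. *Cd200r1*, an inhibitory receptor of myeloid cells, gave 0.90, 0.33 and 0.95 against -0.18, 0.06 and 0.15 (subtracted difference 0.92, adjusted p = 0.0487). *Cnr2*, the cannabinoid receptor of leukocytes, was higher by 0.89 after subtraction (adjusted p = 0.0351), *Ptpn7*, a phosphatase of lymphoid cells, by 0.96 (adjusted p = 0.0427) and *Klrb1a*, a receptor of NK cells with close copies, by 0.62 (adjusted p = 0.0338). The genes lower by this measure differed by less. *Zfp507*, a zinc finger protein gene, gave 0.10, 0.28 and 0.10 in 4T1 tumors against 0.41 to 0.54 in Py230 tumors and 0.43 to 0.52 in all glands (subtracted difference -0.30, adjusted p = 0.0427), and the nuclear receptor corepressor *Lcor* (-0.26), the long noncoding RNA *Firre* (-0.33) and the scaffold *Akap9* (-0.18) were also lower. The 10 largest higher and 9 largest lower strain-subtracted calls were all lost when 4T1 replicate 1 or 3, Py230 replicate 1, BALB/c gland 1 or 2, or C57BL/6 gland 1 or 3 was left out, and 18 of them when Py230 replicate 2 was.

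Some lysosomal proteases and secretory stress genes were higher in 4T1 tumors. Of 23 genes of lysosomes and involution 8 were higher, against 11.0% of all genes, and none lower (median 0.06, and 4 or 5 higher without 4T1 replicate 1 or 3 or Py230 replicate 1), among them the cysteine proteases *Lgmn*, legumain (0.55, 2.24, 1.97 and 2.21 against 1.37, 1.69 and 1.71, adjusted p = 0.00431), *Ctsz* (0.42) and *Ctsl* (0.34), with gland differences of 0.00, 0.00 and 0.17. *Stat3* (0.03), *Lif* (-0.14) and *Socs3* (-0.10), regulators of the first phase of involution, were not called. Of 23 genes of the unfolded protein and amino acid responses 6 were higher and 1 lower (30.4% called, against 19.4% of all genes, median 0.04, and 3 higher without 4T1 replicate 1). The endoplasmic reticulum proteins *Sdf2l1* (0.56, SE 0.11, adjusted p = 0.00115), *Manf* (0.38, adjusted p = 0.00091) and *Creld2* (0.32, adjusted p = 0.00361) were higher in all fits, *Sdf2l1* at 1.12, 0.75 and 1.14 against 0.41, 0.48 and 0.44. *Phgdh*, the first enzyme of serine synthesis, was lower by 0.40 (5 of 6 fits), and *Ddit3* (-0.03), *Atf4* (0.01) and *Asns* (-0.14) were not called. The antioxidant selenoprotein *Gpx1* (0.34, adjusted p = 1.84e-05) and the ferritin light chain *Ftl1* (0.29, adjusted p = 0.00365) were higher. Yet the NRF2 and redox list had 1 gene higher and 1 lower of 29 (6.9% called, against 19.4% of all genes). The list of iron, calcium and mineral transport had 1 higher and 2 lower of 20 (15% called).

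Of 25 matrix proteases and inhibitors 6 were higher and 2 lower (32% called, against 19.4% of all genes). The macrophage elastase *Mmp12* was 2.69, 2.08 and 1.99 in 4T1 tumors against 0.68, 1.44 and 1.44 (difference 1.07, adjusted p = 0.0108, 4 of 6 fits), the collagenase *Mmp13* was higher by 1.01 and the inhibitor *Timp1* by 0.84 (3 of 6 fits each). *Timp3*, a matrix-bound inhibitor, was lower in all fits, at 1.24, 1.35 and 1.13 against 1.65, 1.66 and 1.69 (difference -0.43, SE 0.07, adjusted p = 5.91e-05), and the BALB/c glands lay between the tumor groups (mean 1.45). *Mmp9* (-0.10), *Mmp2* (-0.28) and *Mmp14* (-0.14) were not called. Without 4T1 replicate 1 or Py230 replicate 1 the list had 1 higher and 1 lower gene.

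Proliferation genes were called about as often as all genes. Of 30 cell cycle genes 6 (20%) were called, against 19.4% of all genes. The 4 higher genes were *Ccnb2* (0.59), *Ube2c* (0.54), *Cenpa* (0.51) and *Aurka* (0.39), and in 21 all 4T1 values lay above all Py230 values (median difference 0.39; a split in either direction in 39.1% of all genes). *Mki67*, the Ki67 antigen, differed by 0.42 (adjusted p = 0.13) and *Top2a* by 0.44 (adjusted p = 0.13). The calls turned on single tumors, with 20 higher without 4T1 replicate 2, the 4T1 tumor most alike a gland, 1 without Py230 replicate 1, 2 without Py230 replicate 2 or 3 and none without 4T1 replicate 1 or 3. The D-type cyclins *Ccnd1* (-0.33) and *Ccnd2* (-0.38), which growth factors induce, were lower (2 of 6 fits each). Of 29 DNA replication genes 3 (10.3%) were higher, against 11.0% of all genes (10 genes without 4T1 replicate 2, none without 4T1 replicate 1 or 3, 1 without Py230 replicate 1 or 3), and of 25 p53 targets and inhibitors of the cycle only *Bax* (0.19) was called.

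Most milk protein genes were higher in 4T1 tumors. Of 14 genes 10 were higher (71.4% called, against 19.4% of all genes), and 7 were also called higher in BALB/c glands. The median differences were 0.41 in tumors and 0.36 in glands. The 10 calls became 5 without 4T1 replicate 1, 7 when 4T1 replicate 3 or either of Py230 replicates 1 and 3 was left out, and 8 otherwise. Beta-casein, *Csn2*, gave 3.19, 2.74 and 3.03 in 4T1 tumors, 2.00, 1.70 and 1.78 in Py230 tumors, 2.25 to 2.84 in BALB/c glands and 1.49 to 2.09 in C57BL/6 glands (tumor difference 1.16, adjusted p = 0.00011, strain difference 0.77). The bile salt-stimulated lipase of milk, *Cel* (1.29, strain 0.76), and whey acidic protein, *Wap* (0.99, strain 0.73), were alike. The excess over the strain was not called for any of the 14. *Spp1*, osteopontin, a secreted protein abundant in milk and in macrophages, was higher by 0.70 in tumors and 0.69 in glands.

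Some luminal genes, the regulator *Foxa1* among them, were lower in 4T1 tumors, and no keratin was called. Of 22 luminal genes none was higher and 5 lower (2 without 4T1 replicate 1 or 3), against 8.43% lower over all genes. Of these, 2 were called in all 6 fits. *Foxa1*, the pioneer factor of hormone-sensing luminal cells, was 0.12, 0.27 and 0.12 in 4T1 tumors, 0.98, 0.75 and 0.77 in Py230 tumors and 0.53 to 1.13 in the glands. The 4T1 tumors lay below all other libraries of the week (difference -0.66, SE 0.12, adjusted p = 0.000505, strain -0.09). *Ly6d*, a surface protein of luminal cells, was lower (-1.22, strain -0.93), and the prolactin receptor *Prlr* (-0.52) and *Prom1* (-0.53) were lower in 3 of the 6 fits. The hormone receptors *Esr1* (-0.30) and *Pgr* (-0.65) were not called (adjusted p = 0.086 and 0.084), nor were *Krt18* (-0.07), *Krt19* (-0.06) and *Elf5* (0.13). Of 12 basal genes *Trp63* alone was lower (-0.35, 1 of 6 fits), with *Krt5* at -0.15 and *Krt14* at -0.16. Among 16 junction genes *Tjp1* (-0.23) and *Ovol1* (-0.43) were lower (3 of 6 fits each), and *Cdh1* (0.02) and *Ocln* (-0.20) were not called. Of 15 mesenchymal genes *S100a4* was higher (0.59) and *Snai1* (-0.28, adjusted p = 0.00483), *Snai2* (-0.31), *Twist1* (-0.28) and *Zeb1* (-0.27) were lower, *Snai1* alone in all fits and the others in 1 or 3. The shares called in the junction and mesenchymal lists were 12.5% and 33.3%, against 19.4% of all genes. *Vim* (0.15) and *Cdh2* (-0.06) were not called.

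Some receptors and targets of developmental signals were lower in 4T1 tumors, Notch and Hedgehog genes at the highest share. Of 22 Notch and Hedgehog genes 11 were lower and none higher (median -0.27, -0.02 in the glands), against 8.43% lower over all genes. The receptors *Notch1* (1.08, 1.14 and 1.02 against 1.47, 1.29 and 1.32, difference -0.28, SE 0.06, adjusted p = 0.00384) and *Notch3* (-0.29, adjusted p = 0.00151), the Notch targets *Heyl* (-0.37, adjusted p = 0.00425) and *Nrarp* (-0.39, adjusted p = 0.00452) and the Hedgehog effector *Gli3* (-0.36, adjusted p = 0.000836) were lower in all 6 fits. The ligand *Jag2* (-0.34), the target *Hes1* (-0.24) and the Hedgehog receptors *Ptch1* (-0.24) and *Smo* (-0.22) were lower in 3 or 4 of them, and *Notch2* (-0.02), *Notch4* (0.04) and *Dll4* (-0.14) were not called. The list had 5 calls without 4T1 replicate 3, 6 without 4T1 replicate 1 or Py230 replicate 1, and 10 to 15 otherwise.

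Of 37 Wnt genes 8 were lower and none higher (21.6% called, against 19.4% of all genes). *Lgr5*, the R-spondin receptor of stem cells, gave -1.14, -0.96 and -1.28 against 0.45, -0.25 and 0.03 (difference -1.20, SE 0.18, adjusted p = 4.74e-05), with a strain difference of -0.74. *Wif1*, a secreted Wnt inhibitor, was lower by 0.82 (adjusted p = 0.00217) with a strain difference of -0.12, and the coreceptor *Lrp6* by 0.17 (adjusted p = 0.00159). The target *Axin2* (-0.21) was lower with overlapping groups. Leaving out 4T1 replicate 2 gave 16 lower Wnt genes and leaving out 4T1 replicate 1 gave 3.

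Of 47 growth factor genes 12 were lower and none higher (25.5% called, against 19.4% of all genes), 4 without 4T1 replicate 1 or 3 and 18 without 4T1 replicate 2. *Fgfr2*, the receptor for duct outgrowth, was 0.70, 1.11 and 0.71 in 4T1 tumors and 1.35, 1.29 and 1.24 in Py230 tumors (difference -0.45, SE 0.11, adjusted p = 0.00501), against a strain difference of 0.19 in the other direction. *Fgfr1* (-0.20), *Fgfr3* (-0.44), the ligands *Fgf1* (-0.38) and *Fgf2* (-0.43), *Pdgfra* (-0.30) and *Vegfa* (-0.35) were lower in some fits, and *Fgf13* (-0.68) and *Angptl2* (-0.33) in all. Of 15 ErbB genes *Egfr* (-0.28, adjusted p = 0.0115, 5 of 6 fits), *Erbb4* (-0.44) and *Nrg2* (-0.43) were lower, while *Erbb2* (-0.16) and *Erbb3* (-0.08) were not called. The share called, 20%, was near the 19.4% of all genes.

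Of 31 TGF-beta and BMP genes 9 were lower and 2 higher (35.5% called, against 19.4% of all genes). Without 4T1 replicate 3 there were 2 lower and none higher. *Id3*, a BMP target, was 0.40, 0.72 and 0.31 against 1.03, 0.93 and 0.92 (difference -0.49, SE 0.09, adjusted p = 0.000829), the latent TGF-beta binding protein *Ltbp1* was lower by 0.30 (adjusted p = 0.00256), and the receptors *Bmpr1a* (-0.23) and *Bmpr2* (-0.16) were lower in 5 of 6 fits. *Id2* (0.37, 5 of 6 fits) was higher, unlike *Id3* and *Id1* (-0.26, not called). Of 28 genes of MAPK feedback and the immediate early response 6 were lower (1 without 4T1 replicate 1 or 3), which is 21.4% called, against 19.4% of all genes. The phosphatase *Dusp4* was lower in all fits (-0.45, adjusted p = 0.00462) and *Spry1* (-0.27), *Spry2* (-0.21) and *Spry4* (-0.31), inhibitors induced by fibroblast growth factors, in 1 or 2. *Dusp6* (0.10), *Etv5* (0.09) and *Fos* (-0.10) were not called.

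**Figure D4:**
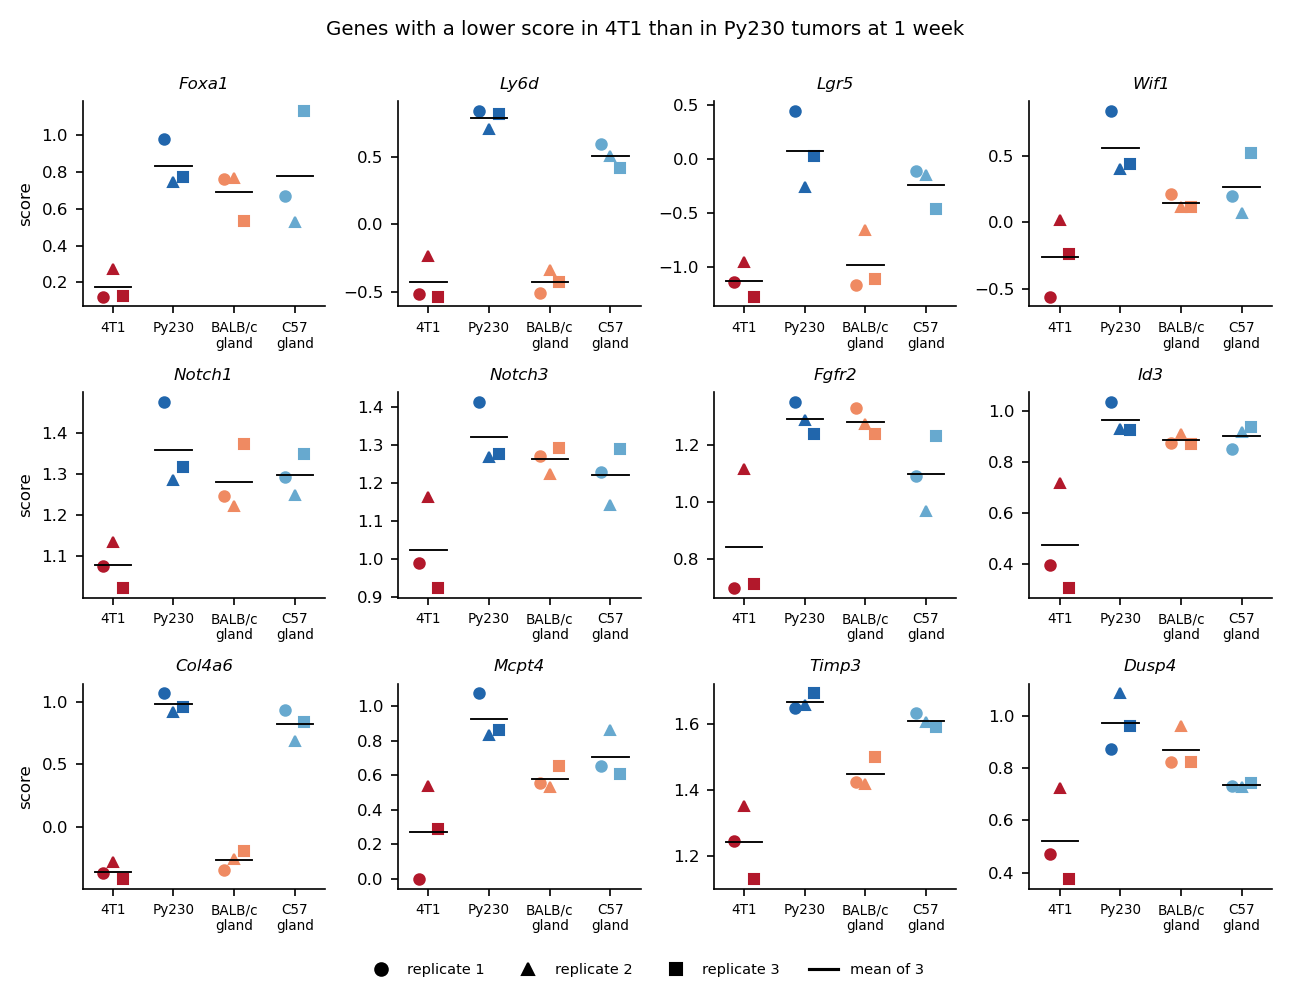
Scores of 12 genes with lower values in the 4T1 tumors, at 1 week in each of 12 libraries (y axis, score units, own range in each panel), with symbols for the replicate number and a bar at the mean of 3. Ly6d, Lgr5 and Col4a6 part by strain in the glands too, whereas for Foxa1, Notch3, Fgfr2 and Id3 the 4T1 tumors lie below the Py230 tumors while the glands of both strains have close or reversed means.

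Most basement membrane genes had lower values in 4T1 tumors. Of 19 basement membrane genes 17 had all 4T1 values below all Py230 values (39.1% of all genes had a split in either direction). Called lower were 5 (26.3%, against 19.4% of all genes called), *Col4a6*, *Lama2* (-0.45), *Nid1* (-0.44), *Lamb2* (-0.30, 5 of 6 fits) and *Lamc1* (-0.22), the 3 others besides *Col4a6* in 1 fit each. Of 15 fibroblast genes *Pdgfra* was lower, and *Dcn* (-0.41), *Lum* (-0.35) and *Dpt* (-0.50) were not called. *Thbs1*, thrombospondin, was lower in all fits (-0.45, strain -0.36), and the collagens *Col1a1* (-0.21) and *Col3a1* (-0.10) were not called. The list of fibrillar collagens and matrix had 1 gene higher and 1 lower of 26 (7.69% called, against 19.4% of all genes). The mean score of 19 adipocyte genes was 1.12, 1.54 and 1.12 in 4T1 tumors, 1.64, 1.77 and 1.60 in Py230 tumors and 1.59 to 2.13 in the glands, so the 4T1 tumors had the lowest values. Only leptin, *Lep* (-0.85, adjusted p = 0.0492, 1 of 6 fits), was called, with *Adipoq* at -0.58 (adjusted p = 0.28). Besides skeletal muscle, 4 lists had no called member, oxidative phosphorylation (42 genes, median 0.02), fatty acid and cholesterol synthesis (28, -0.13), fatty acid oxidation (21, -0.05) and cornified genes (13, -0.12). Of 15 genes of neurons and glia 4 were lower (1 without 4T1 replicate 1 or 3 or Py230 replicate 1). Of 34 glycolysis and hypoxia genes 4 were higher and *Vegfa* lower (no call without 4T1 replicate 1 or 3), with *Car9* (0.21) and *Slc2a1* (0.24) not called. The shares called in these 2 lists were 26.7% and 14.7%, against 19.4% of all genes.

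**Figure D5:**
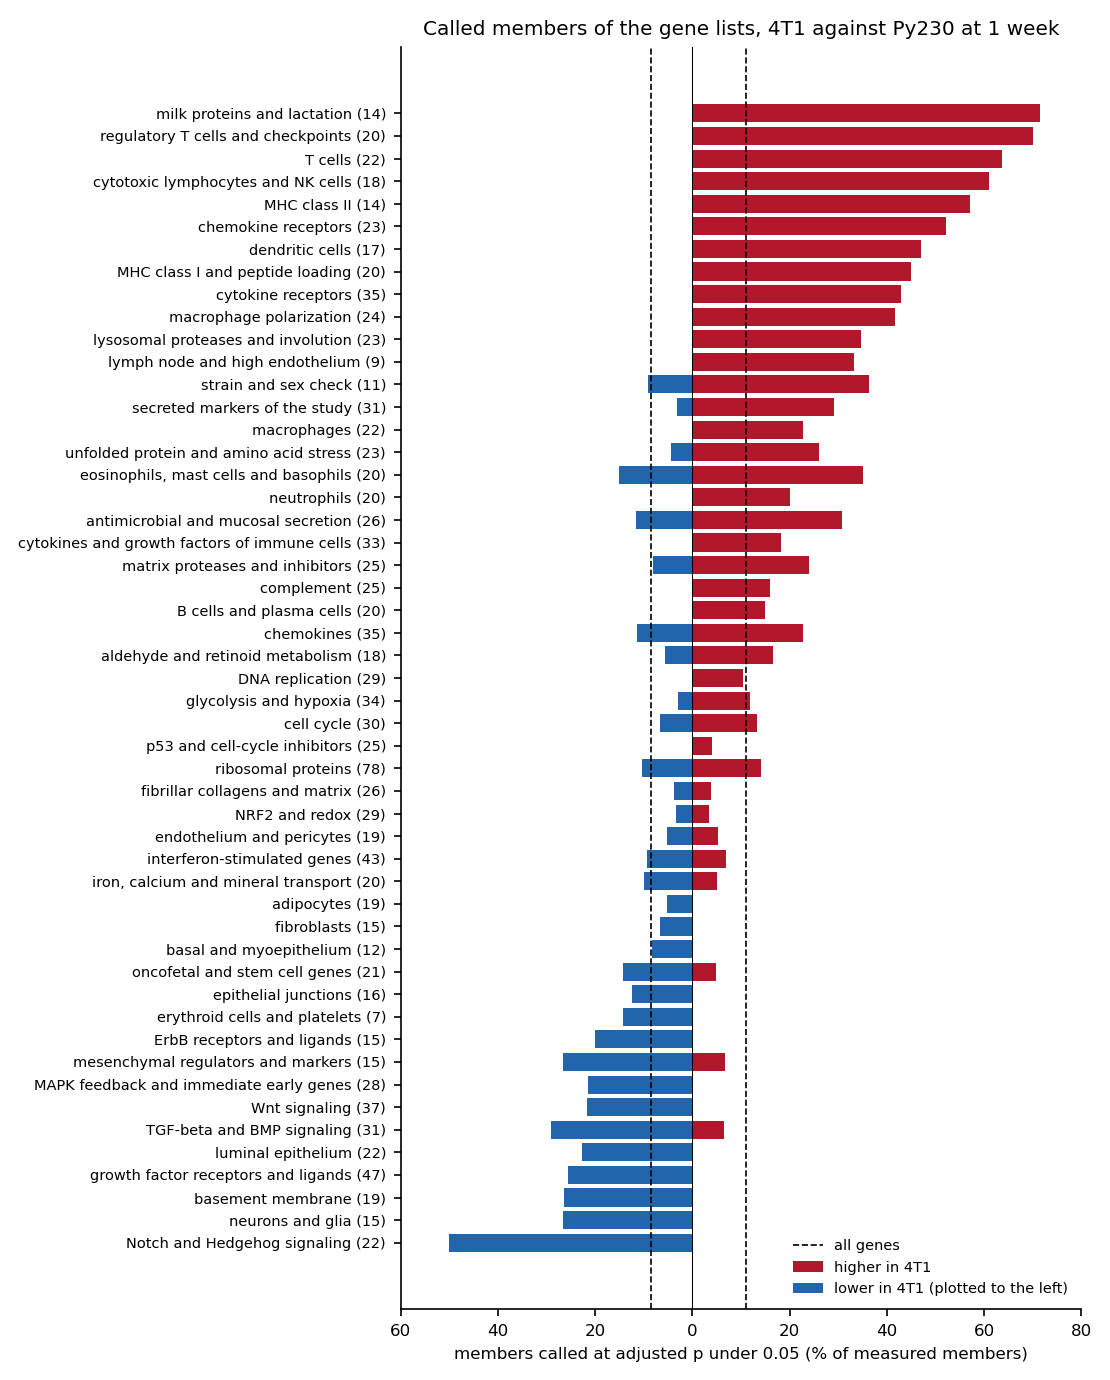
Share of the measured members of 51 gene lists that were called higher (to the right) or lower (to the left) in the 4T1 tumors of 1 week, in % of members, with the number of measured members in brackets and dashed lines at the shares over all genes (11.0% and 8.43%). Milk, regulatory T cell, T cell and cytotoxic lymphocyte lists lead on the higher side and Notch and Hedgehog genes on the lower side. The 5 lists without a called member are not drawn.

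The hallmark sets marked in the deposited tables gave a like split by counts. Of 179 measured genes of allograft rejection 69 were higher and 5 lower (median 0.20, -0.08 in the glands), of 78 genes of IL6-JAK-STAT3 signaling 23 and 1, of 184 genes of the inflammatory response 40 and 3, and of 191 E2F targets 31 and 1. Over all genes 11.0% were higher and 8.43% lower. Lower genes outnumbered higher genes in UV response down (7 higher, 24 lower of 135), epithelial-mesenchymal transition (12 and 25 of 183), myogenesis (5 and 18 of 187, a share of lower genes near that of all genes), mitotic spindle (24 and 28 of 195) and Wnt and beta-catenin signaling (1 and 8 of 38). Interferon alpha response, with 11 higher and 9 lower of 96, was balanced, and 7 of its genes were called between the glands. In the interferon gamma response 33 were higher and 8 lower of 193 (21.2% called, against 19.4% of all genes). Its median was 0.09, and -0.08 in the glands, where 4 of its genes were called.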

How the data were processed

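Libraries were made by the authors from total RNA (RNeasy kit, stranded, paired-end). Per the paper's methods, the authors aligned reads to mm10 with STAR, counted genes with summariseOverlaps and normalized with DESeq2, for which versions, and the handling of multi-mapping reads, are not given in the sources used here. The deposited scores carry no counts, so depth is unknown and no counting interval was given. The deposited mean normalized count per gene and the hallmark set memberships were also used. A deposited table of log2 fold changes and p values from the authors' own comparisons was not used, nor were the 993 repeated gene rows of the table that holds the mean normalized counts.

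Scores were fitted with limma 3.58.1 (R 4.3.3), with 12 group means over 36 libraries (24 residual degrees of freedom), trend and robust variance moderation, and Benjamini-Hochberg adjustment over 21650 genes. The contrasts were tumors, Matrigel glands and their difference. This fit was tested on simulated data. Summaries and figures used Python 3.11.15, pandas 2.3.3, numpy 2.4.6 and matplotlib 3.10.9. Positions are from GENCODE M21. The labels do not say that replicates came from separate animals, but the paper describes the tumor samples of each line as independent. It does not say so for the glands, whose spread may be technical. The p values rest on the spread within groups, pooled over all 12 groups and 36 libraries. They do not measure the spread of the compared libraries alone. Replicate numbers were not treated as pairs, since the deviations of same-numbered 4T1 and Py230 tumors correlated at -0.214, -0.41 and 0.0851.

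Named genes were the 10 called genes that rose most and the 10 that fell most, given a mean normalized count of 100 or more and tumor groups that did not overlap. Next came the same ranking for genes also called with the strain subtracted, and then the members of 56 gene lists (1208 of 1251 genes measured). The comparison, members and lists were chosen with earlier results of these data known. Alternatives were other library subsets, count filters, normalizations and variance models, library weights, a replicate block and leaving out each library. Some listed genes are not reported here.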

Additional observations from a re-analysis of the deposited data

Results flagged for a closer look

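The tumor difference departed from the strain difference of the Matrigel glands in 66 genes (0.305%), by a test of that departure itself (limma, Benjamini-Hochberg over all genes), and the 25 of them named by the rule or listed are given here. Among immune genes the tumor difference exceeded the gland difference by 2.28 for *Rnase2a*, 1.10 for *Ccr2*, 1.07 for *Gzma*, 1.03 for *Eomes*, 1.00 for *H2-DMb2*, 0.96 for *Ptpn7*, 0.93 for *H2-DMa*, 0.93 for *Batf3*, 0.92 for *Cd200r1*, 0.89 for *Cnr2*, 0.86 for *Ncr1*, 0.84 for *Cd2* and 0.62 for *Klrb1a*. The excess was 0.96 for *Aldh1a2*, a retinoic acid synthesis enzyme, 0.70 for *Sdf2l1* and 0.30 for *Gpx1*. For *Ccr2*, *Eomes*, *H2-DMa*, *Batf3* and *Aldh1a2*, among others, the excess was larger than the tumor difference itself (0.52 for *Batf3* and 0.50 for *Aldh1a2*). In these genes a gland difference in the other direction was subtracted, so the excess is not the size of the difference between the tumors. *Rnase2a* held its place in all 3 4T1 tumors, each of which exceeded the 9 other libraries of 1 week.

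The departure was negative for *Capsl* (-0.63), *Nav2* (-0.40), *Firre* (-0.33), *Zcchc14* (-0.31), *Zfp507* (-0.30), *Farp2* (-0.29), *Lcor* (-0.26), *Zkscan8* (-0.22) and *Akap9* (-0.18). The tumor call of *Capsl* was kept in 1 of the 6 fits with a tumor library left out. The largest adjusted p among the 25 was 0.0499 for *Lcor* and *Firre*, and the number of such calls over all genes fell to 0 without 4T1 replicate 3, without Py230 replicate 1, without BALB/c gland 2 or without C57BL/6 gland 1.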

How the results depend on the processing

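Between the tumors, 4196 genes were called. A fit of the 6 tumor libraries alone gave 1487 and library weights gave 9210, while the 12 libraries of 1 week, both count filters, both normalizations, the plain variance model and the block stayed within 1.5 times. Leaving out one library gave 1634 to 5581. The share of calls that were higher in 4T1 was 56.5%, and it fell to 48.5% with the 6 tumor libraries and 48% with the 12 libraries of 1 week. Between the glands, 662 genes were called, against 415 with the 12 libraries, 297 at a mean normalized count of at least 100 and 3138 with library weights. With the strain subtracted, 66 genes were called, against 0 with the 12 libraries or the count filter of 100, 103 with quantile normalization, 107 with cyclic loess, 5462 with library weights and 0 to 1784 with one library left out. With the replicate number as a block, 4502, 701 and 150 genes were called in the 3 comparisons, and 307 of 310 tumor differences of listed genes kept their call.

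Of these 310 differences, 124 kept the call with the 6 tumor libraries, 128 without 4T1 replicate 1, 134 without 4T1 replicate 3 and 144 without Py230 replicate 1, and none changed direction. The causes were not tested. Without counts, differences of genes near the lower end of the score carry an unknown counting error.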
